A study of Homo sapiens with 8 samples.

Results

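Transcriptomes of NCI-H1581 and NCI-H1703, 2 established non-small cell lung cancer lines sensitive to inhibition of the fibroblast growth factor receptors (FGFR), were compared with those of variants of each line that had become resistant to the FGFR inhibitor CPL304110. The question was which changes were shared by both resistant variants, NCI-H1581R and NCI-H1703R. All 8 libraries of the series entered the comparison, as 2 replicates of each of the 4 cell populations, and 18203 of 37441 genes had the 10 counts in total that the test required. The resistant variants had been selected with CPL304110 rising from 50 nM to 2.5 µM in NCI-H1581 and to 5 µM in NCI-H1703 over 4 to 6 months, whereas the sensitive parental cells had not. RNA was taken 24 h after a change of medium in every group. Whether that medium held the inhibitor for the resistant cells is not stated, so lasting resistance and the presence of the drug at harvest cannot be told apart. NCI-H1581 was grown in DMEM/F12 and NCI-H1703 in RPMI 1640, each line in the same medium with and without resistance. Each variant came from 1 selection, and whether it is a clone is not stated.

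FGFRs are receptor tyrosine kinases at the cell surface that pass growth signals through the RAS-RAF-MEK-ERK and PI3K-AKT cascades. Active ERK switches on transcription of its own brakes, among them the DUSP phosphatases and the Sprouty and SPRED adaptors, so the level of these transcripts can follow ERK output. A separate programme, the integrated stress response, raises translation of the transcription factor ATF4 when cells lack amino acids or heme, accumulate unfolded protein or sense double-stranded RNA, and ATF4 then induces genes for amino acid import, amino acid synthesis and tRNA charging.

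Each library held between 33800389 and 40031710 estimated counts over genes, and between 16761 and 18248 genes were detected. Mitochondrial transcripts took 5.36% to 6.59% of the counts in NCI-H1581, 3.25% to 3.29% in NCI-H1581R, 1.60% to 2.65% in NCI-H1703 and 2.17% to 3.34% in NCI-H1703R. The summed level of 12 epithelial and lung markers, in CPM (counts scaled to a common library size), was 47.0 to 48.2 in NCI-H1581 and 91.6 to 118 in its resistant variant, but 118 to 119 in NCI-H1703 and 12.8 to 14.8 in its resistant variant. Among the epithelial markers, EPCAM was at 15.9 and 13.1 CPM in NCI-H1581 and 8.21 and 7.21 CPM in NCI-H1581R. It was at most 0.703 CPM in the libraries of NCI-H1703 and its variant. EPCAM was thus lower in NCI-H1581R while the sum was higher, so the sum does not stand for each marker. The corresponding sums of 10 markers of blood, endothelial and stromal cells were 285 to 307, 42.6 to 49.5, 21.8 to 26.4 and 71.3 to 78.2 CPM. Both sums thus moved in opposite directions in the 2 lines, and between 3 and 6 of the 10 markers of other cell types, among them the leukocyte marker CD14 or PTPRC in every library, were at or under 3 counts. None of these markers was called with the same sign in both lines, and only DCN was called at all, with unlike signs. Replicates are separate runs of the same procedure on 1 cell line, and p-values measure the spread between such runs and between the lines. Replicates 1 and 2 differed alike in all 4 populations for a few low transcripts: KRT5 was at 0 to 0.0297 CPM in every replicate 1 and at 1.0 to 1.17 CPM in every replicate 2, and LYZ at 0.930 to 2.30 and 0.200 to 0.501 CPM. Calls are therefore also given from fits that hold the replicate number as a term.

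The common effect was estimated with an additive model, in which each line has its own base level and resistance adds the same log2 change to both (edgeR quasi-likelihood test, called at a Benjamini-Hochberg adjusted p under 0.1). A gene whose lines disagree then carries that disagreement in its error. Of 18203 genes, 656 were called (3.60%), 276 higher (1.52%) and 380 lower (2.09%) in resistant cells, whereas 3051 had an unadjusted p under 0.05. The log2 fold change had the same sign in each line analysed alone for 587 of the called genes (3.22%), of which 228 were higher (1.25%) and 359 lower (1.97%). The other 69 were called although the lines moved in opposite directions or one line scarcely expressed the gene. For 517 of the 587 genes (2.84% of all tested, 1.07% higher and 1.77% lower), both resistant libraries lay beyond both sensitive libraries in each line. Called or not, the libraries were apart in this way, for 7.14% of genes higher and 7.20% lower in both lines.

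Of the 587 shared calls, 243 also passed the test in each line alone, 166 passed it in NCI-H1581 but not in NCI-H1703, 171 in NCI-H1703 but not in NCI-H1581, and 7 in neither. A second line at or under 3 counts in all its libraries accounted for 52 of them, 11 with NCI-H1581 at that level and 41 with NCI-H1703, and for these the data say nothing about sharing. Of the shared calls with a mean of at least 1 CPM in each line, 169 were higher and 249 lower, with a median absolute log2 fold change of 0.85 for NCI-H1581 and 0.70 for NCI-H1703, against 0.42 and 0.29 over all genes tested. Shared calls over 2-fold in both lines numbered 208. Conversely, each line alone called a larger share of genes, 14.2% for NCI-H1581 and 14.4% for NCI-H1703, and the change differed between the lines for 16.1% of genes (interaction term, adjusted p under 0.1). The genes called higher were poorer in G and C than those called lower, with a median GC content of the longest transcript of 44.8% and 54.7% against 48.7% over all genes, and with offsets for GC content and length the additive model called 400 genes higher and 434 lower.

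These counts rest on few libraries. Leaving out 1 library moved the 587 shared calls by more than 1.5 times each time, to 147 and 200 without NCI-H1581 replicate 1 and 2, to 320 and 379 without NCI-H1581R replicate 1 and 2, to 276 and 320 without NCI-H1703 replicate 1 and 2, and to 321 and 336 without NCI-H1703R replicate 1 and 2. A replicate block common to both lines gave 236 shared calls, and a separate block in each line gave 72. The separate blocks left 3 residual degrees of freedom against 5 in the main fit. Whether calls were lost through this or through the replicates was not tested.

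**Figure D1:**
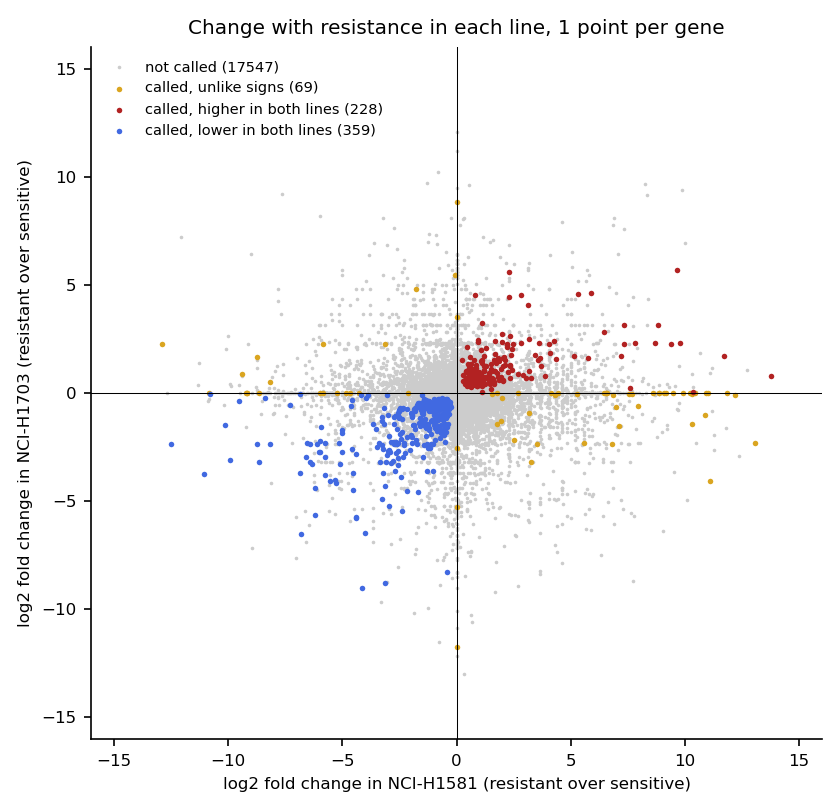
Log2 fold change of each gene with resistance in NCI-H1581 (horizontal axis) and NCI-H1703 (vertical axis); grey points were not called by the additive model, red and blue points are the 228 and 359 genes called with the same sign in each line, and yellow points the 69 called with unlike signs. Most genes far from 0 lie along one axis or the other, and the shared calls fill the lower left and upper right of the plot.

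The genes with the largest shared change were ranked by the smaller of the 2 lines' changes, 12 in each direction. Only shared calls with a mean of at least 1 CPM in each line entered this ranking. Genes whose resistant and sensitive libraries overlapped in either line were left out, so the separation seen below was a condition of the choice. DOCK10, which encodes an activator of the small GTPases CDC42 and RAC1, led the rises. Its level was 0.119 and 0.175 CPM in the NCI-H1581 libraries and 8.13 and 9.81 CPM in NCI-H1581R, and 13.7 and 18.2 CPM in NCI-H1703 against 386 and 379 CPM in NCI-H1703R. The log2 fold change was 5.90 (SE 0.44) for NCI-H1581 and 4.62 (SE 0.17) for NCI-H1703, and the adjusted p of the common effect was 0.000359. No resistant library came near a sensitive one of its line. GJA1, the gap junction protein connexin 43, rose from 37.2 and 65.0 to 393 and 329 CPM in the NCI-H1581 pair and from 0.703 and 0.658 to 12.4 and 18.4 CPM in the NCI-H1703 pair (adjusted p = 0.00619).

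HDAC9, a class IIa histone deacetylase, rose with coinciding estimates in both lines. Its level was 5.70 and 5.17 CPM in NCI-H1581, 23.9 and 26.1 CPM in NCI-H1581R, 16.1 and 17.2 CPM in NCI-H1703 and 69.3 and 81.8 CPM in NCI-H1703R. The log2 fold change was 2.21 in each line (SE 0.21 and 0.12; adjusted p of the common effect 0.000359), and HDAC9 was the only one of 43 chromatin remodelling genes and histone deacetylases to be called. MAN1A1, a mannosidase that trims N-glycans in the Golgi, rose with log2 fold changes of 2.0 and 2.37 (adjusted p = 0.00572). ASPH, the aspartate β-hydroxylase, rose by 1.87 and 1.47 (adjusted p = 0.00427) and MAP2, a microtubule-associated protein of neurons, by 2.03 and 1.64 (adjusted p = 0.00516). The Notch effector HEY2 rose from 0.119 and 0.250 to 1.78 and 2.31 CPM in the NCI-H1581 pair, and from 0.757 and 0.987 to 2.64 and 3.19 CPM in the NCI-H1703 pair (adjusted p = 0.0487). It was called with neither replicate block. HEY2 was the only gene of the Notch list called higher, and 1 was called lower. Over all genes 1.25% were called higher and 1.97% lower, so these calls describe single genes and not the pathway. Other rises were those of ID4, an inhibitor of basic helix-loop-helix factors, of ABAT, which breaks down GABA, of POPDC3 and of CRACD, with adjusted p from 0.0291 to 0.0688.

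Among the falls, MALL, a lipid raft protein, dropped from 39.4 and 34.9 to 0.585 and 0.787 CPM in the NCI-H1581 pair and from 3.27 and 3.14 to 0.211 and 0.238 CPM in the NCI-H1703 pair (adjusted p = 0.00253). VGF, a secreted neuropeptide precursor, fell from 720 and 571 to 85.8 and 82.1 CPM and from 9.79 and 7.63 to 1.27 and 1.29 CPM. Although VGF was expressed at very different levels in the 2 lines, its log2 fold changes were alike, −2.93 (SE 0.20) and −2.73 (SE 0.25), with an adjusted p of 0.000359 for the common effect. WLS, which carries Wnt proteins to the cell surface, fell from 19.4 and 16.9 to 3.06 and 1.88 CPM and from 18.4 and 18.3 to 1.59 and 2.27 CPM (adjusted p = 0.00197). GRB7, an adaptor that binds phosphorylated receptor tyrosine kinases, fell from 15.0 and 10.2 to 0.505 and 0.254 CPM and from 19.1 and 20.5 to 2.62 and 3.19 CPM (adjusted p = 0.0165). The list of falls also held the EBI3 subunit of interleukin-27 and interleukin-35 (log2 fold changes −3.00 and −2.70), the chitin-binding receptor FIBCD1 (−2.35 and −2.98), the DNA sensing adaptor STING1 (−3.41 and −2.33), the ligand WNT6 (−2.30 and −2.38) and CDCA7L (−6.00 and −2.21). SPRY2, IFITM1 and IFITM2 completed it and are described with their groups. With the common replicate block 9 of the 12 rises and 11 of the 12 falls were called, and with a separate block in each line 6 and 9. DOCK10, GJA1, HDAC9, MAN1A1, MAP2 and ASPH were the rises called under both blocks.

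**Figure D2:**
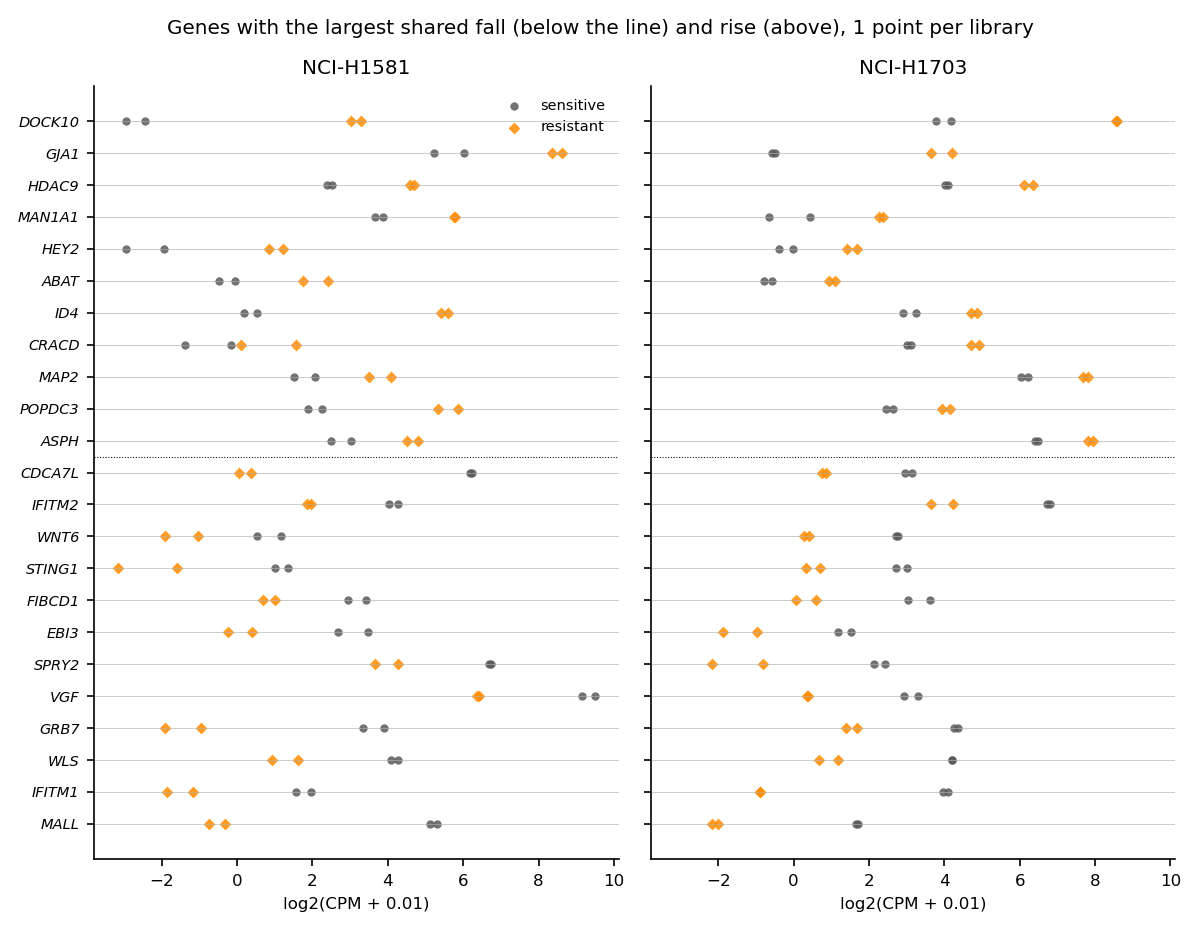
Level in each library of 11 of the 12 genes with the largest shared rise (upper rows) and of the 12 with the largest shared fall (lower rows), as log2 of CPM plus 0.01, in NCI-H1581 (left) and NCI-H1703 (right); grey circles are sensitive and orange diamonds resistant libraries. The choice of these genes required that the 2 resistant libraries lie on the same side of the 2 sensitive ones in both lines, so every row shows it.

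The paper describes CPL304110 as a pan-FGFR inhibitor, and FGF receptors are read first among the signalling genes. FGFR1 was at 207 and 171 CPM in NCI-H1581 and 27.0 and 35.1 CPM in NCI-H1581R, and at 839 and 804 CPM in NCI-H1703 and 556 and 575 CPM in NCI-H1703R. Both resistant variants were thus below their parental line without overlap, and FGFR1 passed the test in each line alone, but the sizes differed (log2 fold change −2.59 with SE 0.21 and −0.51 with SE 0.11, interaction adjusted p = 0.00107) and the common effect missed the threshold (adjusted p = 0.111). FGFR3 was called higher, at 3.09 and 3.27 CPM in NCI-H1581, 4.94 and 7.14 CPM in NCI-H1581R, 67.3 and 55.4 CPM in NCI-H1703 and 361 and 292 CPM in NCI-H1703R (adjusted p = 0.0415). In NCI-H1581 alone the FGFR3 difference did not pass (adjusted p = 0.159), and FGFR3 was not called with either replicate block (adjusted p = 0.189 with a separate block in each line). FGFR3 was the only called member among 19 receptors and proximal adaptors, and no member of the RAS-RAF-ERK cascade (26 tested) or of 28 other receptor tyrosine kinases was called with the same sign in both lines.

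Among the genes downstream of ERK several were called. ERK activity itself cannot be read from RNA, and on Western blots the paper saw ERK level and phosphorylation unchanged in both resistant variants. It also reported lower phosphorylation of FGFR and its direct effectors, and higher p38 level and phosphorylation, in both. Of 29 ERK feedback and output genes tested, the common effect called 7 lower with the same sign in each line (24.1%, against 1.97% of all genes) and none higher. The median log2 fold change of the list was −0.43 for NCI-H1581 and −0.62 for NCI-H1703, and 12 members were below 0 in both lines while 2 were above 0 in both. SPRY2, a Sprouty adaptor that restrains receptor signalling to RAS, was at 102 and 106 CPM in NCI-H1581 and 19.2 and 12.7 CPM in NCI-H1581R, and at 5.35 and 4.34 CPM in NCI-H1703 and 0.555 and 0.211 CPM in NCI-H1703R. The groups did not overlap in either line, with log2 fold changes of −2.70 (SE 0.24) and −3.61 (SE 0.50) and an adjusted p of 0.00472. DUSP6, the cytoplasmic phosphatase of ERK, was at 282 and 275 against 88.2 and 76.1 CPM in the NCI-H1581 pair and at 6.76 and 9.33 against 1.19 and 1.93 CPM in the NCI-H1703 pair. Its log2 fold changes were −1.75 (SE 0.18) and −2.34 (SE 0.34), with an adjusted p of 0.00471, and it was called under each of the 20 alternative settings.

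The other called members moved less. SPRED1, which holds neurofibromin at the membrane to inactivate RAS, fell from 76.1 and 80.3 to 40.9 and 29.1 CPM and from 33.3 and 34.8 to 19.3 and 24.0 CPM (adjusted p = 0.0410). The nuclear ERK phosphatase DUSP5 was at 3.89 and 4.44 against 2.92 and 2.64 CPM in the NCI-H1581 pair and at 32.0 and 30.2 against 6.69 and 9.32 CPM in the NCI-H1703 pair, a fall that differed in size between the lines (common adjusted p = 0.0895, interaction 0.0242). DUSP7, the ETS factor ETV5 and the receptor EPHA2 had log2 fold changes between −0.47 and −1.07 in each line, with adjusted p from 0.0703 to 0.0935. In NCI-H1581 alone DUSP5, DUSP7 and EPHA2 did not pass (adjusted p = 0.398, 0.211 and 0.118). SPRY2 and DUSP6 alone of the 7 were called with either replicate block, and leaving out any 1 of the 8 libraries cut the members called to between 2 (without either replicate of NCI-H1581) and 4.

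Not every Sprouty or ETS member behaved in this way. SPRY1 was at 34.5 and 34.0 CPM in NCI-H1581 and 29.4 and 26.8 CPM in NCI-H1581R, but at 10.1 and 12.4 CPM in NCI-H1703 and 0.344 and 0.132 CPM in NCI-H1703R. SPRY4 had log2 fold changes of −0.32 (SE 0.16) and −2.91 (SE 0.14), and ETV4 of 0.27 (SE 0.18) and −3.40 (SE 0.24). The change differed between the lines for all 3 genes (interaction adjusted p from 0.000156 to 0.000233), and none was called by the common effect. MYC, whose transcription also follows growth factor signalling, was at 185 and 194 against 144 and 135 CPM and at 197 and 199 against 148 and 174 CPM, which did not pass (adjusted p = 0.109).

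The stress-activated and PI3K branches gave 3 calls higher and 4 lower among their lists. MAPK14, which encodes p38α, was at 84.2 to 103 CPM in all 8 libraries and its groups overlapped in both lines (log2 fold changes 0.14 and 0.01, adjusted p = 0.856). The paper's blots showed more p38 protein and p38 phosphorylation in both variants, and RNA measures neither. Of 29 p38 kinases, activators and effectors, 1 was called higher, TAB3 (log2 fold changes 0.60 and 0.55, adjusted p = 0.0419), a partner of the kinase TAK1, and 1 lower, GADD45B (−1.04 and −0.74, adjusted p = 0.0184), a stress sensor that binds the kinase MTK1. Each is 3.45% of the list, against 1.25% of all genes called higher and 1.97% lower, and neither was called with a separate replicate block in each line. Of 24 genes of the JNK cascade and AP-1, the kinases MAP2K4 and MAP3K2 were called higher (adjusted p = 0.0895 and 0.0753) and FOSL2, an AP-1 subunit, lower, from 25.1 and 24.9 to 13.9 and 11.6 CPM and from 174 and 172 to 63.1 and 76.4 CPM (adjusted p = 0.00572). These are 8.33% and 4.17% of the list, and of the 3 FOSL2 was called with either replicate block, MAP3K2 with the common one and MAP2K4 with neither. Among 30 PI3K-AKT-mTOR genes, 2 were called lower (6.67%), one of them the translation repressor EIF4EBP1, and neither with a replicate block. EIF4EBP1 was at 271 and 244 against 113 and 91.4 CPM in the NCI-H1581 pair and at 337 and 337 against 206 and 247 CPM in the NCI-H1703 pair (adjusted p = 0.0424).

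Shared rises were most frequent among targets of ATF4. Of 30 tested, the common effect called 9 higher with the same sign in each line (30.0%, against 1.25% of all genes) and 1 lower, and 1 of the 9, STC2, rests on NCI-H1581 alone. The list's median log2 fold change was 0.78 for NCI-H1581 and 0.53 for NCI-H1703, where the medians of all genes were 0.04 and 0.00, and 22 members (73.3%) were above 0 in both lines against 27.1% of all genes. DDIT3, the transcription factor CHOP, was at 16.4 and 12.3 CPM in NCI-H1581 and 25.7 and 42.7 CPM in NCI-H1581R, and at 29.7 and 22.5 CPM in NCI-H1703 and 64.7 and 55.8 CPM in NCI-H1703R. Its log2 fold changes were 1.27 (SE 0.28) and 1.24 (SE 0.16), with an adjusted p of 0.0267. DDIT3 overlaps MARS1 and MBD6 on the other strand, and the protocol does not state whether counting used strand. SLC7A11, the cystine importer, rose from 59.8 and 78.4 to 142 and 153 CPM and from 92.3 and 88.2 to 208 and 249 CPM, with log2 fold changes of 1.10 (SE 0.20) and 1.37 (SE 0.11) and an adjusted p of 0.00516. PCK2, the mitochondrial phosphoenolpyruvate carboxykinase, rose from 60.4 and 66.7 to 167 and 177 CPM and from 91.2 and 81.1 to 162 and 157 CPM (adjusted p = 0.00801). With the common replicate block DDIT3, SLC7A11, PCK2, SESN2 and XPOT were called, 5 of the 9, and with a separate block in each line SLC7A11 and PCK2. Leaving out 1 library gave 3 members called higher without either replicate of NCI-H1581, 7 without replicate 1 of NCI-H1703R, and 5 or 6 without any of the others.

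The remaining members rose more modestly or in one line more than the other. SESN2, a leucine sensor upstream of mTORC1, had log2 fold changes of 1.03 and 0.57 (adjusted p = 0.0301), and XPOT, which exports tRNA from the nucleus, of 0.75 and 0.52 (adjusted p = 0.0286). The pseudokinase TRIB3 had 0.45 and 0.55, asparagine synthetase ASNS 1.64 and 0.43, and the AP-1 repressor JDP2 2.32 and 0.70, with adjusted p of 0.0774, 0.0955 and 0.0794. STC2, a secreted glycoprotein, was called on NCI-H1581 alone, from 6.77 and 8.29 to 24.8 and 40.6 CPM, since NCI-H1703 held at most 3 counts of it in any library, and says nothing of a shared rise. ATF5 was the member called lower (log2 fold changes −0.45 and −0.94, adjusted p = 0.0641).

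Other members of the programme moved in NCI-H1581 more than in NCI-H1703. ATF4 itself was at 203 and 221 against 481 and 537 CPM in the NCI-H1581 pair and at 430 and 410 against 492 and 523 CPM in the NCI-H1703 pair, without overlap in either line but with log2 fold changes that differed, 1.27 (SE 0.19) and 0.30 (SE 0.10), so that the common effect was not called (adjusted p = 0.111). CHAC1, which degrades glutathione, had log2 fold changes of 3.44 (SE 0.18) and 0.72 (SE 0.09) and passed the test in each line alone, but not in common (adjusted p = 0.115). ATF3 was at 1.51 and 1.37 against 16 and 17.5 CPM in the NCI-H1581 pair and at 33.5 and 34.1 against 31.3 and 35.8 CPM in the NCI-H1703 pair, where the groups overlapped. ATF4, CHAC1 and ATF3 were picked for naming after their values had been seen.

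The enzymes that load amino acids onto tRNA, many of which ATF4 induces, were called higher in 4 of 20 cases (20%, against 1.25% of all genes) and lower in none. GARS1, which charges glycine tRNA, rose from 131 and 146 to 248 and 254 CPM and from 520 and 502 to 782 and 852 CPM (log2 fold changes 0.87 and 0.71, adjusted p = 0.0114). CARS1, for cysteine, had log2 fold changes of 0.94 and 0.45 (adjusted p = 0.0688), IARS1, for isoleucine, of 0.63 and 0.30 (adjusted p = 0.0967) and SARS1, for serine, of 0.51 and 0.39 (adjusted p = 0.0516). All 4 were higher without overlap between sensitive and resistant libraries in both lines. Of all genes, 1.25% were shared calls higher and 1.07% were such calls without overlap, so this separation mostly comes with the call. Of 21 enzymes of serine synthesis and one-carbon metabolism, PSAT1 and MTHFD2 were called higher and TYMS lower. The shares over all genes were 1.25% higher and 1.97% lower. PSAT1, of the serine pathway, was at 141 and 155 against 453 and 338 CPM and at 298 and 295 against 393 and 455 CPM (adjusted p = 0.0628). MTHFD2, the mitochondrial folate enzyme, was at 98.9 and 105 against 232 and 204 CPM and at 219 and 242 against 269 and 300 CPM (adjusted p = 0.0955). GARS1 alone of the genes called higher in these lists was called with either replicate block, and leaving out 1 library left 1 to 3 synthetases called.

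**Figure D3:**
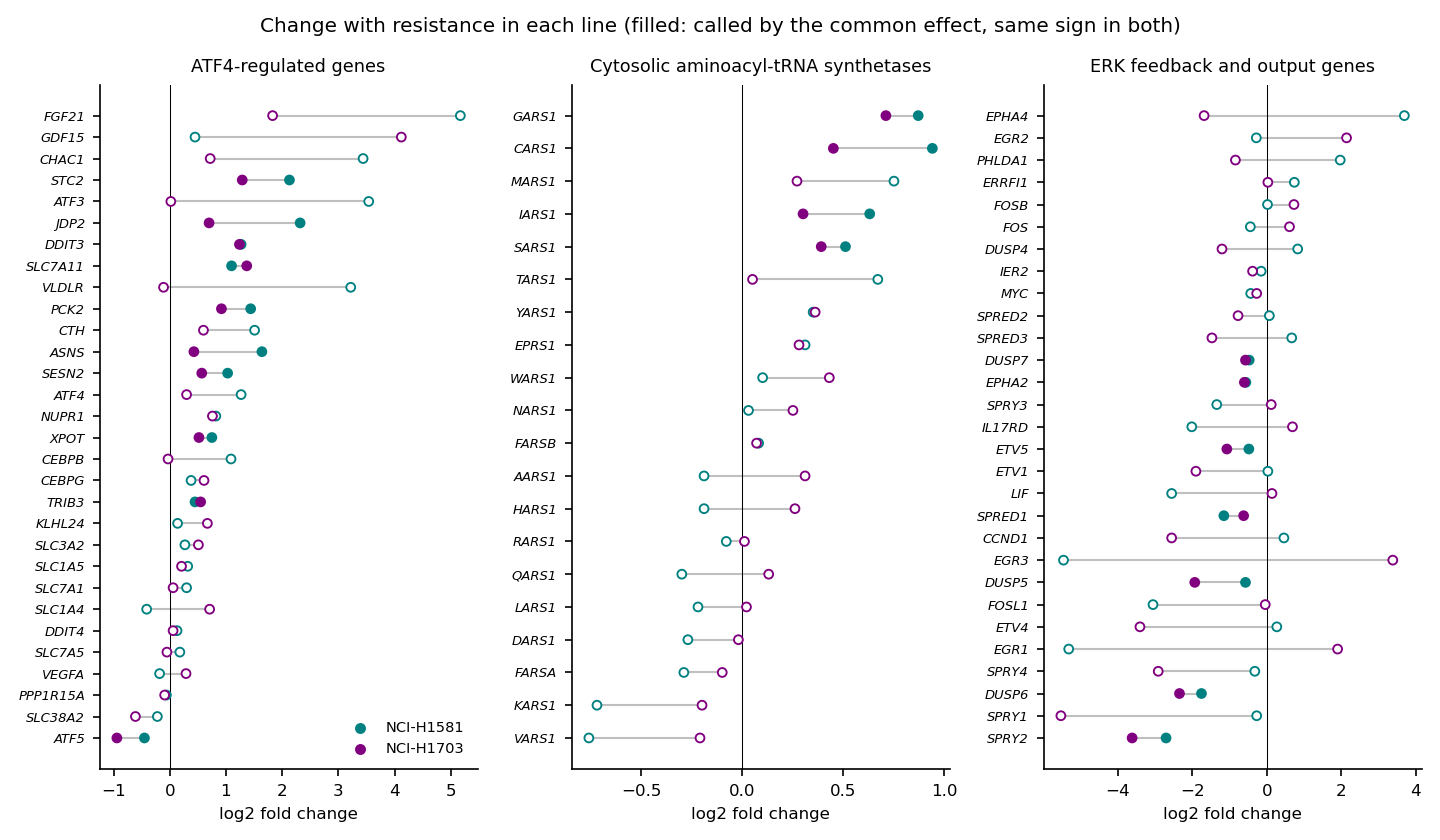
Log2 fold change with resistance of every tested member of 3 gene lists in NCI-H1581 (teal) and NCI-H1703 (purple), joined by a grey line; filled points are members called by the common effect with the same sign in each line. Of 30 ATF4-regulated genes 22 lie above 0 in both lines, 11 of 20 aminoacyl-tRNA synthetases do so, and 12 of 29 ERK feedback and output genes lie below 0 in both.

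ATF4 binds DNA with C/EBP partners at a C/EBP-ATF response element, whose core was searched as TGATGNAA on both strands (TTNCATCA on the other) in the RefSeq promoter windows of GRCh38.p14, from 250 bases before to 50 bases after the annotated start. It was found for 1217 of 27305 genes with a window (4.46%), for 10 of 27 windows matched to the ATF4 list (37.0%) and for 7 of 16 matched to the synthetases (43.8%). Among the genes called higher it was found for ASNS and JDP2, 2 of 8 with a window, and for CARS1, GARS1 and IARS1, 3 of 4. These 5 windows are shown because they are the promoters of called genes that hold the core, which is in capitals. They lie at chr7:97872359-97872658 (ASNS, minus strand), chr14:75427772-75428071 (JDP2, plus strand), chr11:3057374-3057673 (CARS1, minus strand), chr7:30594628-30594927 (GARS1, plus strand) and chr9:92293648-92293947 (IARS1, minus strand), and each is written 5′ to 3′ on the strand of its gene.
ASNS: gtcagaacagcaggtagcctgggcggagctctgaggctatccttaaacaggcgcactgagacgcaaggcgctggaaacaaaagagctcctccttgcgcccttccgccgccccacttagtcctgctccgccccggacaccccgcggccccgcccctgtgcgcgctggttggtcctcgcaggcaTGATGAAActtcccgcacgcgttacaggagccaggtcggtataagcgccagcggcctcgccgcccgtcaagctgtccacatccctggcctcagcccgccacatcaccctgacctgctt
JDP2: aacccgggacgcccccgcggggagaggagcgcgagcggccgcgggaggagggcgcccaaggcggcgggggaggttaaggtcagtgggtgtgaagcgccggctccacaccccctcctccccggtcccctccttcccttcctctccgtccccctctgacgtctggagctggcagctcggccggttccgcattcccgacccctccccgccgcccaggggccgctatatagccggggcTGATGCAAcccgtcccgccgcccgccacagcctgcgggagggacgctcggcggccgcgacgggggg
CARS1: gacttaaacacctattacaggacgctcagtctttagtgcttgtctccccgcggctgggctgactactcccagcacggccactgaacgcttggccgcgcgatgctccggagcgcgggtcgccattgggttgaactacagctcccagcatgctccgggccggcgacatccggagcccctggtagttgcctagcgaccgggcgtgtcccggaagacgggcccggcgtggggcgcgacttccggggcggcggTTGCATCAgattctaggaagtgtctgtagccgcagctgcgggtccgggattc
GARS1: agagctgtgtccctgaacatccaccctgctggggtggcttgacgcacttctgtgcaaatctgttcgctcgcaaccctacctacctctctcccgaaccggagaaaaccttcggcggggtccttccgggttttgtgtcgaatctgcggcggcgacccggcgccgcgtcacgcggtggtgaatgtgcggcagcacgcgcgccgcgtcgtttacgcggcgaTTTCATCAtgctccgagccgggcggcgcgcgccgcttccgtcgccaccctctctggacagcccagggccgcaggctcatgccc
IARS1: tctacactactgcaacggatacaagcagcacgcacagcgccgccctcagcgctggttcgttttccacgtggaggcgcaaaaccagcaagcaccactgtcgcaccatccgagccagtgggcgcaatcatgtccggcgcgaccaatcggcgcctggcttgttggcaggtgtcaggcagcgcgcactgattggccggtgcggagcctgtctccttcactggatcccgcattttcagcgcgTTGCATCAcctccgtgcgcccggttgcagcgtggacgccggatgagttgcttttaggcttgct
In ASNS and JDP2 the core reads in the direction of the gene and begins 68 and 16 bases before the start, and in CARS1, GARS1 and IARS1 it reads on the opposite strand and begins 2, 33 and 13 bases before the start. The match is a description of these letters and not of a bound site. DDIT3, TRIB3, SESN2, STC2, PCK2, XPOT and SARS1 did not hold these letters in their windows.

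Some genes of DNA replication, the G1 phase and sterol synthesis were called lower, with small changes. Of 45 DNA replication genes, 28 (62.2%) were below 0 in both lines, against 22.3% of all genes, and 1 was above 0 in both. The common effect called 5 of them lower (11.1%, against 1.97% of all genes) and none higher, with a median log2 fold change of −0.25 in each line. PCNA, the sliding clamp, was at 422 and 408 against 292 and 249 CPM and at 169 and 190 against 132 and 146 CPM (log2 fold changes −0.61 and −0.34, adjusted p = 0.0711). The helicase subunits MCM3 (−0.62 and −0.28) and MCM6 (−0.63 and −0.25), the licensing factor CDT1 (−0.77 and −0.30) and thymidylate synthase TYMS (−0.69 and −0.46) were called with adjusted p from 0.0535 to 0.0962. None of the 5 was called with either replicate block, and leaving out 1 library left between 0 and 3 of them. Of 27 G1 regulators, cyclin CCNE2, E2F2 and the CDK inhibitor CDKN1A were called lower (11.1%, against 1.97% of all genes). CDKN1A, which encodes p21, fell from 21.6 and 13.8 to 6.78 and 5.97 CPM and from 28.5 and 29.9 to 12.5 and 16.5 CPM (adjusted p = 0.0283). Of 30 cholesterol synthesis and SREBP2 genes, 16 (53.3%, against 22.3% of all genes) were below 0 in both lines, with a median of −0.24 in each. The common effect called 2 of the 30 lower, against 1.97% of all genes. These were squalene epoxidase SQLE (−0.63 and −0.61, adjusted p = 0.0174) and ACAT2 (−0.49 and −0.48, adjusted p = 0.0614). SQLE lies on the long arm of chromosome 8, and of the G1 and sterol genes named here, CDKN1A and SQLE were called with the common replicate block and SQLE alone with a separate block in each line (adjusted p = 0.125 for CDKN1A).

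Calls with a fall in each line were also found among TGF-β, Wnt and matrix genes. Of 27 TGF-β pathway genes, 4 were called lower (14.8%, against 1.97% of all genes). PMEPA1, a target and feedback inhibitor of TGF-β signalling, fell from 5.76 and 6.54 to 1.43 and 1.85 CPM and from 29.1 and 31.1 to 9.62 and 11.7 CPM (adjusted p = 0.00572). The receptor TGFBR2 was at 3.50 and 3.05 against 0.558 and 0.584 CPM and at 376 and 424 against 207 and 234 CPM (adjusted p = 0.0577). The ligand TGFB1 (−0.62 and −0.39, adjusted p = 0.0679) and the corepressor SKI (−0.28 and −0.43, adjusted p = 0.0855) fell less. Of 25 matrix proteases and inhibitors, 5 were called lower, against 1.97% of all genes. The urokinase receptor PLAUR fell from 21.4 and 17.8 to 2.58 and 3.25 CPM and from 32.3 and 34.3 to 12.9 and 17.3 CPM (adjusted p = 0.0373), the membrane protease MMP15 by log2 changes of −1.19 and −0.67 (adjusted p = 0.0273) and the inhibitor TIMP2 by −0.79 and −0.63 (adjusted p = 0.0128). ADAM9 was called as well and lies beside FGFR1, and MMP10 was called on NCI-H1703 alone, since NCI-H1581 held at most 3 counts in any library. With the common replicate block PMEPA1 was called, and of the proteases ADAM9, MMP15, PLAUR and TIMP2, whereas a separate block in each line left PMEPA1 and none of the proteases. Leaving out 1 library gave 1 or 2 TGF-β genes and 3 to 5 proteases.

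Of 42 Wnt pathway genes and targets, 3 were called lower (7.14%, against 1.97% of all genes) and 1 higher (2.38%, against 1.25%). AXIN2, a negative regulator that β-catenin induces, fell from 235 and 225 to 95.0 and 115 CPM and from 14.9 and 14.7 to 2.86 and 2.74 CPM, more in NCI-H1703 than in NCI-H1581 (common adjusted p = 0.0200, interaction 0.00437). WNT6 and the coreceptor LRP5 fell too, and LEF1, a partner of β-catenin, rose (log2 fold changes 1.71 and 1.41, adjusted p = 0.0280), although NCI-H1703 and its variant held only 0.0811 to 0.344 CPM of it. Of these 4 WNT6 was called with either replicate block, AXIN2 and LEF1 with the common block only and LRP5 with neither. The transcription factor TEAD1 fell (−0.80 and −0.59, adjusted p = 0.0338), as did RUNX3 (−1.28 and −0.71, adjusted p = 0.0156) and the sorting receptor SORT1 (−0.65 and −1.18, adjusted p = 0.0226), and all 3 were called with the common block but not with separate blocks. ROBO1, a receptor for Slit proteins, rose by 1.21 (SE 0.26) and 1.24 (SE 0.08), from 46.4 and 58.6 to 95.3 and 147 CPM and from 70.4 and 71.2 to 160 and 167 CPM (adjusted p = 0.0105), and was called under all 20 alternative settings.

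A few interferon-related genes and 1 metallothionein were called lower. Of 38 interferon-stimulated genes, 4 were called lower (10.5%, against 1.97% of all genes) and none higher. The median log2 fold change of the list was −0.87 for NCI-H1581 and 0.05 for NCI-H1703. IFITM2, which blocks entry of enveloped viruses, was at 19.3 and 16.4 against 3.88 and 3.61 CPM and at 112 and 105 against 12.6 and 18.8 CPM (log2 fold changes −2.24 and −2.75, adjusted p = 0.00153). Its neighbour IFITM1 was at 3.89 and 2.97 against 0.266 and 0.432 CPM and at 17.1 and 15.6 against 0.529 and 0.528 CPM (adjusted p = 0.00516). Both belong to a family of close copies between which reads can be divided, and both are uncertain as single genes. OAS3 (−0.58 and −0.29) and OASL (−2.58 and −2.99), which sense double-stranded RNA, were called with adjusted p of 0.0718 and 0.0689, but with neither replicate block. MT2A, a metal-binding protein that also has close copies, fell from 24.7 and 24.3 to 5.29 and 6.43 CPM and from 59.1 and 57.2 to 8.99 and 9.11 CPM (adjusted p = 0.00146), and was the only one of 7 metallothioneins called.

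Drug transporters require the lines to be read apart. ABCB1 and ABCG2, the efflux pumps P-glycoprotein and BCRP, were called higher by the additive model and had the same sign in each line, yet only NCI-H1581R expressed them. ABCB1 was at 0.0297 and 0.0999 CPM in NCI-H1581 and 228 and 243 CPM in NCI-H1581R, but at 0 to 0.0792 CPM in the 4 NCI-H1703 libraries, or at most 3 counts. ABCG2 was at 0.534 and 0.275 against 596 and 440 CPM in the NCI-H1581 pair and at 0.132 to 0.211 CPM in the NCI-H1703 libraries. The change differed between the lines for both (interaction adjusted p = 0.0440 and 0.000399). GSTA4, a glutathione transferase, was called with a rise in each line (log2 fold changes 0.92 and 0.49, adjusted p = 0.0861). Of the 3 genes ABCB1 was called with either replicate block and ABCG2 and GSTA4 with neither.

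**Figure D4:**
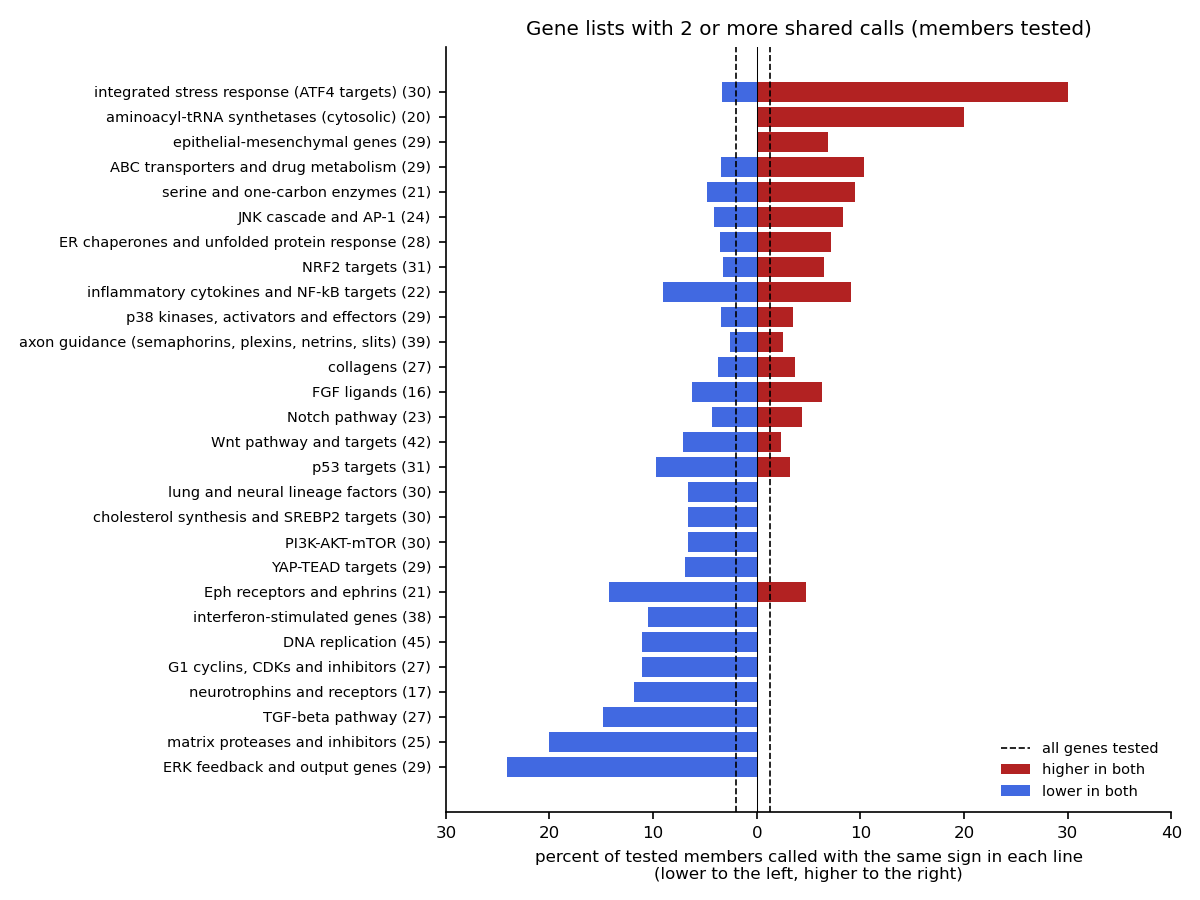
Percent of the tested members of each gene list (number in brackets) called by the common effect with the same sign in each line, lower to the left and higher to the right; dashed lines mark the shares over all genes tested, 1.97% and 1.25%. ATF4 targets reach 30.0% to the right, and ERK feedback and output genes 24.1% to the left.

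Some gene lists moved in 1 line or in both without a shared change. In the tests of single lines, 14 of 40 lysosome and autophagy genes were lower in NCI-H1581R and 27 higher in NCI-H1703R. The medians of the list were −0.47 and 0.53, and the change differed between the lines for 35 of its members. Among all genes tested, the share passing in either direction was 14.2% for NCI-H1581 alone and 14.4% for NCI-H1703 alone. A change that differed between the lines was found for 16.1% of all genes. LAMP1, a lysosomal membrane protein, was at 566 and 537 against 190 and 166 CPM in the NCI-H1581 pair and at 452 and 429 against 469 and 461 CPM in the NCI-H1703 pair. The protease CTSD was at 834 and 785 against 589 and 490 CPM in the former and at 358 and 324 against 813 and 818 CPM in the latter. The 13 mitochondrially encoded subunits had medians of −0.93 and 0.36, and 12 were lower in NCI-H1581R while none passed in NCI-H1703R. No member of either list was called by the common effect. Cytosolic ribosomal proteins (78 tested) and proteasome subunits (31 tested) also had no shared call, with medians between −0.13 and 0.14. Of the 48 gene lists, 10 had none.

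The position of the called genes was uneven. Chromosome 8 held 39 shared falls among 559 genes tested (6.98%, against 1.97% of all genes), and chromosome X 30 shared rises among 630 (4.76%, against 1.25%). In windows of 10 Mb, chosen for description after the counts of each chromosome were seen, the falls on chromosome 8 gathered between 30 and 40 Mb on the short arm, with 12 of 46 genes, and between 140 and 150 Mb at the end of the long arm, with 17 of 91. The median log2 fold change was −0.46 for NCI-H1581 and −0.42 for NCI-H1703 in the former window and −0.52 and −0.39 in the latter. The long-arm window held among others the plectin gene PLEC, the polarity gene SCRIB, HSF1, PUF60, AGO2 and BOP1, which serves ribosome assembly. BOP1 was at 394 and 313 against 229 and 178 CPM and at 315 and 314 against 161 and 198 CPM (adjusted p = 0.0281). On chromosome X the rises fell in 13 of 16 windows, unevenly. The largest numbers lay between 40 and 50 Mb, with 7 of 79 genes, and between 50 and 60 Mb, with 5 of 48. The median of the chromosome was 0.21 for NCI-H1581 and 0.22 for NCI-H1703. Between 40 and 50 Mb the medians were 0.17 for NCI-H1581 and 0.72 for NCI-H1703, and between 50 and 60 Mb 0.21 and 0.82.

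The short-arm window is that of FGFR1, which lies on chromosome 8 of GRCh38. Of 22 other genes tested with a centre within 1 Mb of that of FGFR1, 20 were below 0 in both lines and none was above 0 in both, and 12 were called lower (54.5%). The medians were −0.95 for NCI-H1581 and −0.63 for NCI-H1703. Of 57 genes between 1 and 10 Mb away, 1 was called lower (1.75%) and 15 were below 0 in both, with medians of −0.19 and −0.05. NSD3, a histone methyltransferase gene next to FGFR1, was at 175 and 201 against 75.4 and 107 CPM in the NCI-H1581 pair and at 290 and 303 against 168 and 170 CPM in the NCI-H1703 pair (log2 fold changes −1.04 and −0.78, adjusted p = 0.0180). ZNF703, a transcriptional corepressor, was at 82.6 and 75.5 against 29.8 and 32.5 CPM and at 7.41 and 7.87 against 2.06 and 1.72 CPM (adjusted p = 0.00507). Neither overlapped in either line.

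Others of the 12 serve unrelated functions. They include LSM1 of the mRNA decapping complex (−1.09 and −0.66), the histone methyltransferase subunit ASH2L (−1.18 and −0.54), the RNA polymerase III factor BRF2 (−0.99 and −0.74), the phospholipase DDHD2 (−0.83 and −0.74), the centrosomal protein TACC1 (−0.56 and −0.70), PLEKHA2 (−0.91 and −1.30), RAB11FIP1 (−0.56 and −0.57), the adhesion receptor ADGRA2 (−2.75 and −1.45), ADAM9 (−1.0 and −0.58) and EIF4EBP1 (−1.33 and −0.54). With the common replicate block 11 of the 12 were called, all but EIF4EBP1, and with a separate block in each line ZNF703, DDHD2, NSD3 and PLEKHA2. In all, 19 of the 22 neighbours were called lower by DESeq2, and 15 with offsets for GC content and length. The log2 fold change of FGFR1, −2.59 and −0.51, was below the median of its neighbours in NCI-H1581 and above it in NCI-H1703. DNA copy number was not analysed here, and its part in these falls was not tested.

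**Figure D5:**
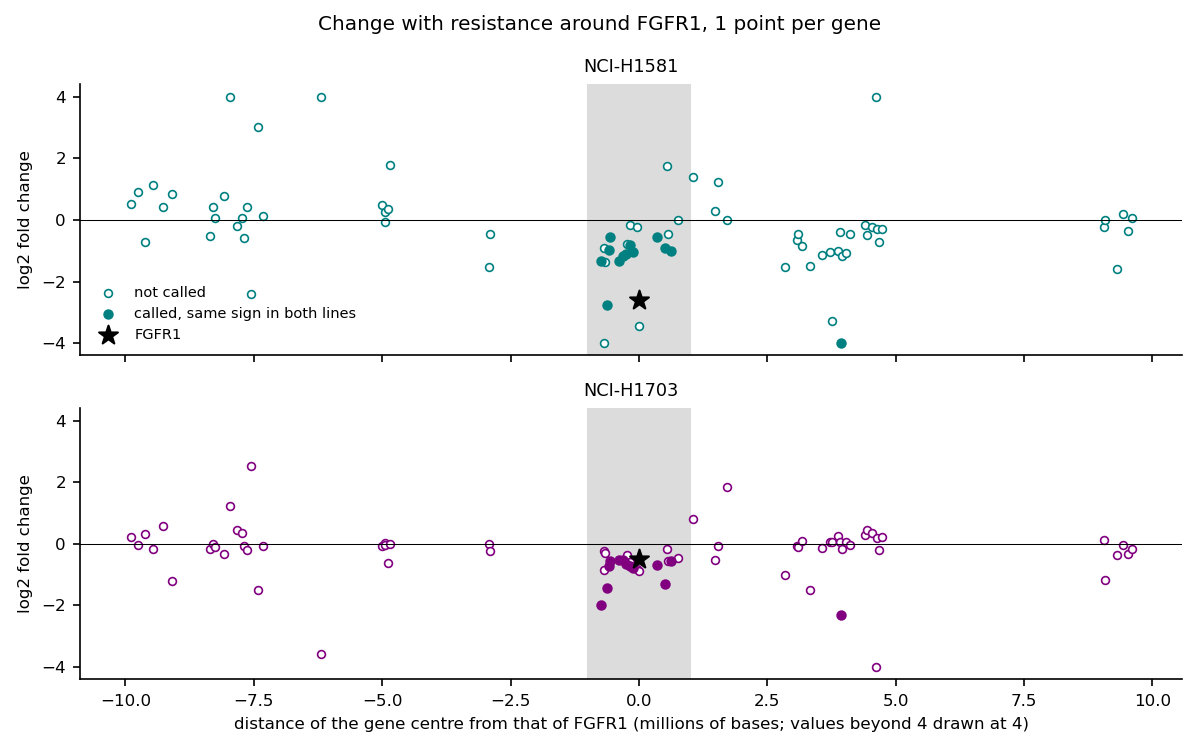
Log2 fold change with resistance of genes within 10 Mb of FGFR1, by the distance of the gene's centre, in NCI-H1581 (upper panel) and NCI-H1703 (lower panel); filled points were called by the common effect with the same sign in each line, the star is FGFR1, and values beyond 4 are drawn at 4. Within the shaded 1 Mb on each side 20 of 22 neighbours lie below 0 in both panels.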

How the data were processed

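RNA-seq had been made from 8 libraries. The authors trimmed reads with cutadapt and quantified transcripts with Salmon, per the labels, and deposited these estimates, summed to genes, as 1 table of estimated counts; versions, strand setting and annotation release are not given in the sources used here. Symbols, positions, GC content and transcript length were taken from GENCODE for GRCh38, with symbols for 16574 of the 18203 genes tested. Counts were rounded to whole numbers. Groups follow the labels.

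Genes with at least 10 counts in total were tested with edgeR 4.0.16 in R 4.3.3 (TMM, estimateDisp, glmQLFit, glmQLFTest, two-sided, Benjamini-Hochberg over all genes tested), with cell line and variant as terms (5 residual degrees of freedom), in each line alone, and with their interaction. A call was an adjusted p under 0.1, and a shared call had in addition the same sign in each line alone. CPM use the TMM-scaled library size. No columns of the table were left out. The procedure was tested on simulated counts. Intervals of counting error were not needed, since every value is compared over libraries; 3 counts correspond to 0.0749 to 0.0888 CPM.

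The quasi-dispersions that edgeR 4.0.16 estimates by default were kept after the counts under both these and its newer estimator had been seen (276 higher and 380 lower against 720 higher and 954 lower). They were kept because they are the default of the test as planned, and they made fewer false calls on simulated counts. Those counts held the same change in both lines and no replicate effect, so they cannot decide between the estimators for these data. The members and gene lists were chosen with earlier results of these data known. Genes are named by rule: the 12 largest rises and falls among shared calls with a mean of at least 1 CPM in each line and no overlap in either, by the smaller of the lines' changes; up to 6 called members of each list by adjusted p, and those called with unlike signs; FGFR1, MYC, EIF4EBP1, DUSP6 and MAPK14; and up to 4 uncalled members of a list described. ATF4, CHAC1, ATF3, SPRY1, SPRY4, ETV4, KRT5, LYZ, EPCAM, LAMP1, CTSD and the genes on chromosome 8 were named after their values were seen, and further called members of a described list are named with it. The values of 2 genes that the rule names are not reported here, though they stay in the counts.

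Replicate numbers come from the labels, which say that the procedure was repeated for the second replicate but not whether both lines were run together. Over 11061 genes with a mean of at least 200 counts, deviations from the group means of the 2 variants carrying the same number correlated at 0.13 (NCI-H1581) and 0.218 (NCI-H1703), and between −0.0378 and −0.33 across the lines, so the fit without a block was kept as planned and both blocks are given beside it. Alternatives were RLE size factors, DESeq2 1.42.0, other count filters, a threshold of 0.05, the mean of the within-line changes, offsets for GC content and length (splines with 5 degrees of freedom), the blocks, the newer quasi-dispersions and each library left out.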

Additional observations from a re-analysis of the deposited data

Results flagged for a closer look

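Of 129 genes named in the text, the change with resistance differed between the lines for 42 (interaction term of edgeR over all 8 libraries, adjusted p under 0.1), against 16.1% of all genes tested. The values below are differences of log2 fold change, NCI-H1703 minus NCI-H1581. The estimate was higher in NCI-H1581 and above 0 in both lines for ABCB1 (−10.02), ABCG2 (−10.33), ASNS (−1.24), ATF3 (−3.55), ATF4 (−0.99), CHAC1 (−2.75), DOCK10 (−1.29), ID4 (−3.45), JDP2 (−1.63), MAP2K4 (−0.56), MTHFD2 (−0.79), PCK2 (−0.55), POPDC3 (−2.06), PSAT1 (−0.90) and TWIST1 (−1.28). It was higher in NCI-H1703 and above 0 in both for FGFR3 (1.49) and GJA1 (1.67). The fall was the larger in NCI-H1581 for ADGRA2 (1.29), BDNF (3.27), CDCA7L (3.76), EIF4EBP1 (0.76), FGFR1 (2.06), GRB7 (2.28), MALL (1.93), PLAUR (1.61), RELB (0.70), RUNX3 (0.55) and TGFBR2 (1.65). It was the larger in NCI-H1703 for AXIN2 (−1.27), DUSP5 (−1.38), FGF5 (−7.87), IFITM1 (−1.66), MT2A (−0.62), SORT1 (−0.55), SPRY1 (−5.26), SPRY4 (−2.61) and ZNF703 (−0.67). The estimates had opposite signs for ALDH1A2 (−15.26), CTSD (1.84), DCN (8.61), ETV4 (−3.68) and LAMP1 (1.71). A difference against a line near 0 counts, as for ABCB1, ABCG2, FGF5, DCN or ALDH1A2, depends on the prior count and has no interpretable size. For ATF4, CHAC1 and FGFR1, both lines moved in the same direction without overlap and the common effect was not called. CHAC1 and FGFR1 passed the test in each line alone, and ATF4 in NCI-H1581 but not in NCI-H1703 (adjusted p = 0.131, edgeR).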

How the results depend on the processing

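The number of shared calls depended on how the error was estimated. The main test called 276 genes higher and 380 lower, 587 with the same sign in each line. DESeq2 called 967, 1202 and 2015, the mean of the 2 within-line changes 1392, 1642 and 2284, and the newer quasi-dispersions, added after seeing the data, 720, 954 and 1331. A threshold of 0.05 left 126, 182 and 274. Under a replicate block common to both lines the counts were 93, 151 and 236, with a separate block in each line 24, 49 and 72, and with offsets for GC content and length and a separate block 17, 29 and 46. Leaving out 1 library gave 58 to 179, 97 to 242 and 147 to 379. RLE size factors, both other count filters and GC offsets without a block stayed within 1.5 times the main counts. NCI-H1703 alone called 2626 genes, and 6468 with a replicate block in the line, and no other count of a single line or of the interaction moved by over 1.5 times.

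The direction of the 113 named shared calls held under every alternative. All 113 were called by DESeq2 and under the newer quasi-dispersions, 59 with the common replicate block, 31 with a separate one in each line, and 45 to 74 without 1 library. MAPK14, not called, changed sign, at 0.00 with GC offsets and a separate block and −0.01 without NCI-H1581 resistant replicate 1 (up to 0.11 without another library). The ATF4 targets called higher ranged from 0 to 15 of 30 over the alternatives, and the ERK feedback genes called lower from 2 to 12 of 29. With 2 replicates in each group, changes seen in 1 line and small shared changes are the least certain, and genes under about 0.0888 CPM rest on 3 counts or fewer. The causes of these shifts were not tested.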

Other observations

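Ligand genes of the FGF family were called on 1 line each. FGF10, a ligand made by mesenchyme, was at 68.6 and 78.6 against 312 and 288 CPM in the NCI-H1581 pair (log2 fold change 2.04) and at 0.0897 to 0.185 CPM in the 4 NCI-H1703 libraries. FGF5 was at 48.3 and 47.0 against 0.211 and 0.0792 CPM in the NCI-H1703 pair and at 0.0593 to 0.150 CPM in the NCI-H1581 libraries. Both counted as shared calls by sign (adjusted p = 0.0104 and 0.0895, edgeR), although the other line scarcely held the transcript. Among neurotrophins, BDNF fell in both lines, from 1.51 and 2.32 to 0 and 0.0508 CPM and from 9.79 and 10.8 to 1.56 and 1.45 CPM (adjusted p = 0.0442).

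Inflammatory and epithelial-mesenchymal genes gave mixed calls. The growth factor CSF1 rose from 1.72 and 1.07 to 2.87 and 3.12 CPM and from 24.0 and 26.2 to 62.5 and 78.7 CPM (adjusted p = 0.0169), while RELB and TNFAIP3 of the NF-κB system were lower (adjusted p = 0.0901 and 0.0977). The transcription factor TWIST1 rose from 10.0 and 10.7 to 38.1 and 37.2 CPM in the NCI-H1581 pair and was at 9.52 and 11.8 against 13.7 and 18.2 CPM in the NCI-H1703 pair (adjusted p = 0.0784). The tight junction gene CLDN1 was higher too (log2 fold changes 1.49 and 1.34, adjusted p = 0.0169). Of the genes named so far, FGF10, CSF1 and CLDN1 were called with the common replicate block and CLDN1 with a separate block in each line.

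Genes called with unlike signs mostly had 1 line near 0. The retinoic acid synthase ALDH1A2 was at 0.0890 and 0.0250 against 148 and 106 CPM in the NCI-H1581 pair and at 0 to 0.108 CPM in the NCI-H1703 libraries, and the nuclear receptor NR0B1 at 2.08 and 1.38 against 74.9 and 74.5 CPM in the NCI-H1703 pair and at 0 to 0.0297 CPM in the NCI-H1581 libraries.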
